A study of Mus musculus with 60 samples.

Results

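The 32 genes examined here are markers and effector genes of the glia that surround sensory neurons and their axons, the satellite glia and the Schwann cells. They were taken as a named list out of 21887 protein-coding genes, and all 32 were found in the gene table. They comprise 8 transcription factors, 4 receptors, 8 proteins of the myelin sheath, 3 connexins, 4 genes of metabolism and uptake, and 5 genes of filaments, adhesion and calcium binding. The tissue was the L4 to L6 dorsal root ganglia of C57BL/6 mice aged 6 to 8 weeks, taken 24 hours after surgery. The 4 surgeries were a cut of the sciatic nerve (sciatic nerve axotomy, SNA), its sham operation (Sham), a cut of the ascending axons in the cord (dorsal column axotomy, DCA) and the laminectomy that gives access to the cord without cutting it (Lam). No transgene or drug was named in the labels. ChIP-seq was made of H3K9ac and H3K27ac, acetylations of histone H3 found at active promoters and enhancers, and of H3K27me3, the methylation laid down by Polycomb proteins at silenced genes. ATAC-seq, in which a transposase cuts open chromatin, was the other assay. Every combination of assay and surgery is represented by a single pooled list of peaks, so there are 16 lists. Each ChIP list pooled 2 samples of 10 mice each with 2 input samples, and each ATAC list pooled 3 samples of 1 mouse each. No list has a replicate, so no difference between lists could be tested against the spread between animals, and the intervals given below cover counting error only.

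Satellite glia wrap the cell bodies of sensory neurons, and Schwann cells ensheath their axons, both having come from the neural crest. SOX10 is the transcription factor that both lineages keep throughout life. Neuregulin signals from the axon reach Schwann cells through ERBB3 paired with ERBB2, and EGR2 (Krox20) together with POU3F1 (Oct6) switches on the myelin genes. Satellite glia are known for FABP7, for glutamine synthetase (Glul) and the glutamate transporter GLAST (Slc1a3), and for coupling through connexin 43 (Gja1). The ganglion is a mixture of these glia with neurons, macrophages, vessels and connective tissue, and in such bulk tissue fewer cells of a type and less signal per cell cannot be told apart.

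Promoters of RefSeq (GRCm38.p6) were matched to 25 of the 32 genes, 44 promoters in all, each with 250 bases before the transcription start and 50 after it. Below are the 250 bases before 4 starts that show the extremes of the data. The Zeb2 start, chr2:45110278-45110527 on the minus strand, lies inside the gene and is the only one of the 44 promoters under a peak of H3K9ac, H3K27ac and ATAC after all 4 surgeries. The Cnp promoter, chr11:100574689-100574938 on the plus strand, lay under H3K9ac and ATAC peaks in all 4. The Mag promoter, chr7:30914923-30915172 on the minus strand, lay under H3K27ac and ATAC peaks in all 4. The Tfap2b promoter, chr1:19211804-19212053 on the plus strand, is the only one of the 44 under H3K27me3 in all 4 lists, and it lay under no peak of the other assays. A promoter is said to lie under a peak where at least 1 of its 300 bases does. Capitals mark the letters ACAAAG, which SOX proteins can bind, and TGACTCA, which AP-1 can bind, on either strand.
Zeb2: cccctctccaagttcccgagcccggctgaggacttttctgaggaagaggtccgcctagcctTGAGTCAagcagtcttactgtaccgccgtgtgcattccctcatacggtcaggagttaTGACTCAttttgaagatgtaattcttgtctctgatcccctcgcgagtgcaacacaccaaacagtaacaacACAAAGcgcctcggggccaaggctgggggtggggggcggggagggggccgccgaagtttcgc
Cnp: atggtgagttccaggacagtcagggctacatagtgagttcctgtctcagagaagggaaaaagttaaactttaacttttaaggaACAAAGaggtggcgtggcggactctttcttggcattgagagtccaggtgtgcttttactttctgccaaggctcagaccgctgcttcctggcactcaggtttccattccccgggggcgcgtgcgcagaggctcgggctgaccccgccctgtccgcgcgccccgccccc
Mag: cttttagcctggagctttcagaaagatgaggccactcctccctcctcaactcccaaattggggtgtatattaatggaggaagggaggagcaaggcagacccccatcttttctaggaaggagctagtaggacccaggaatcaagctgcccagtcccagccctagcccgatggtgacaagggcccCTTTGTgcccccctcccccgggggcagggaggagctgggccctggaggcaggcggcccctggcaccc
Tfap2b: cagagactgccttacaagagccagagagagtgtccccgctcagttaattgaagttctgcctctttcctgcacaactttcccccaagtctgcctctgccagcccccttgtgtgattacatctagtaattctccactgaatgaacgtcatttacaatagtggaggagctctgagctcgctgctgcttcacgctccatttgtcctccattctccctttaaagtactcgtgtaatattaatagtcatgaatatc
The Zeb2 sequence holds 3 matches, 2 of TGACTCA and 1 of ACAAAG, and that nearest the start begins 62 bases before it. Cnp and Mag hold 1 ACAAAG each, 167 and 67 bases before the start, and Tfap2b holds neither word. Over the whole 300-base windows, ACAAAG, or on the other strand CTTTGT, was found in 8 of the 44 promoters (18.2%), beside 16.8% of all 21263 promoters of the table. The other genes with it were Apoe, Gjb1 and Sox2. TGACTCA, or on the other strand TGAGTCA, was found in 2 of the 44 (4.55%, Zeb2 and Gja1) beside 4.66% of all promoters. Neither word overlapped the other in these sequences, and both shares are close to those of all promoters. These are counts of letters and not of bound sites.

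The lists differed in length, which bears on every count below. For H3K9ac the Sham and Lam lists had 50332 and 50667 peaks, beside 74652 for SNA and 89647 for DCA. For H3K27ac the Sham and DCA lists were the shorter, with 43803 and 46489, beside 75824 for SNA and 67311 for Lam. H3K27me3 lists were long (90011 to 154055 peaks) but weak, with a q-value of 0.05 or less at 43 to 1613 of their peaks, and ATAC lists ran from 153556 to 174605. The H3K27ac list of SNA stood apart. Of the 1000 strongest H3K27ac peaks of Sham, Lam and DCA, 44.5%, 63.6% and 38.2% overlapped a peak of the SNA list, against 93.5% or more for each of the 9 other pairs of H3K27ac lists. Read totals are not in the lists, so depth is unknown. As a check of the tissue, all 10 markers of sensory neurons had ATAC peaks at their ends after every surgery, while 1 to 3 of them had an H3K9ac peak and 4 to 9 an H3K27me3 peak there. Of 8 macrophage markers, 1 to 4 had an H3K9ac peak at an end and 4 or 5 an ATAC peak, and of 6 oligodendrocyte markers 1 or 2 had H3K9ac and 2 to 5 ATAC. Of 6 endothelial markers 3 or 4, and of 6 fibroblast markers 3 to 5, had H3K9ac. Over all genes, the shares with a peak at an end were 49.1 to 59.3% for H3K9ac, 69.4 to 71.2% for ATAC and 12.3 to 33.4% for H3K27me3. The part of these other cell types in the values of the glial genes was not tested.

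Taken 1 at a time, H3K9ac, H3K27ac and ATAC each had peaks at the ends of most of the glial genes whatever the surgery, but all 3 together at only 14. A gene end is here the first or last base of the gene in RefSeq, and a peak counts when it lies within 1 kb of it. H3K9ac peaks lay at a gene end in all 4 lists for 21 of the 32 genes, beside 41.9% of all protein-coding genes, and H3K27ac peaks for 20, beside 32.1%. ATAC peaks did so for 22, beside 61.9% of all genes, a share nearer to that background. H3K27me3 peaks did so for 3 (Tfap2a, Tfap2b and Slc1a3), beside 5.30%. H3K9ac, H3K27ac and ATAC peaks lay at the ends in all 12 lists of these assays for 14 genes, beside 27.5% of all genes. They were Sox10, Foxd3, Zeb2, Erbb2, Erbb3, Notch1, Ednrb, Mal, Cnp, Gjc3, Glul, S100b, Vim and Ncam1. At the other extreme, no H3K9ac list had a peak at an end of 1 gene, Tfap2b (38.7% of all genes), and no H3K27ac list at Tfap2b, Egr2 or Ncmap (43.0%). No ATAC list had one at 4 genes, Drp2, Gja1, Gjb1 and Cdh19 (21.8%), and no H3K27me3 list at 14 (50.9%).

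List by list the number of genes with an end peak moved little for ATAC and more for the histone marks. For H3K9ac it was 23 of 32 in Sham (49.1% of all genes), 25 in Lam (49.7%), 28 in SNA (50.6%) and 30 in DCA (59.3%). For H3K27ac it was 21 in DCA (42.7%), 24 in Sham (40.3%), 27 in Lam (50.9%) and 28 in SNA (50.9%). ATAC peaks were at an end of 24 genes in Sham (69.4%), Lam (69.5%) and DCA (70.7%) and of 27 in SNA (71.2%). H3K27me3 was at an end of 5 in DCA (12.3%), 11 in SNA (23.0%), 13 in Sham (28.6%) and 14 in Lam (33.4%). The order of the acetylation counts follows the order of the list lengths except that H3K27ac counted more in Sham than in the slightly longer DCA list.

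**Figure D1:**
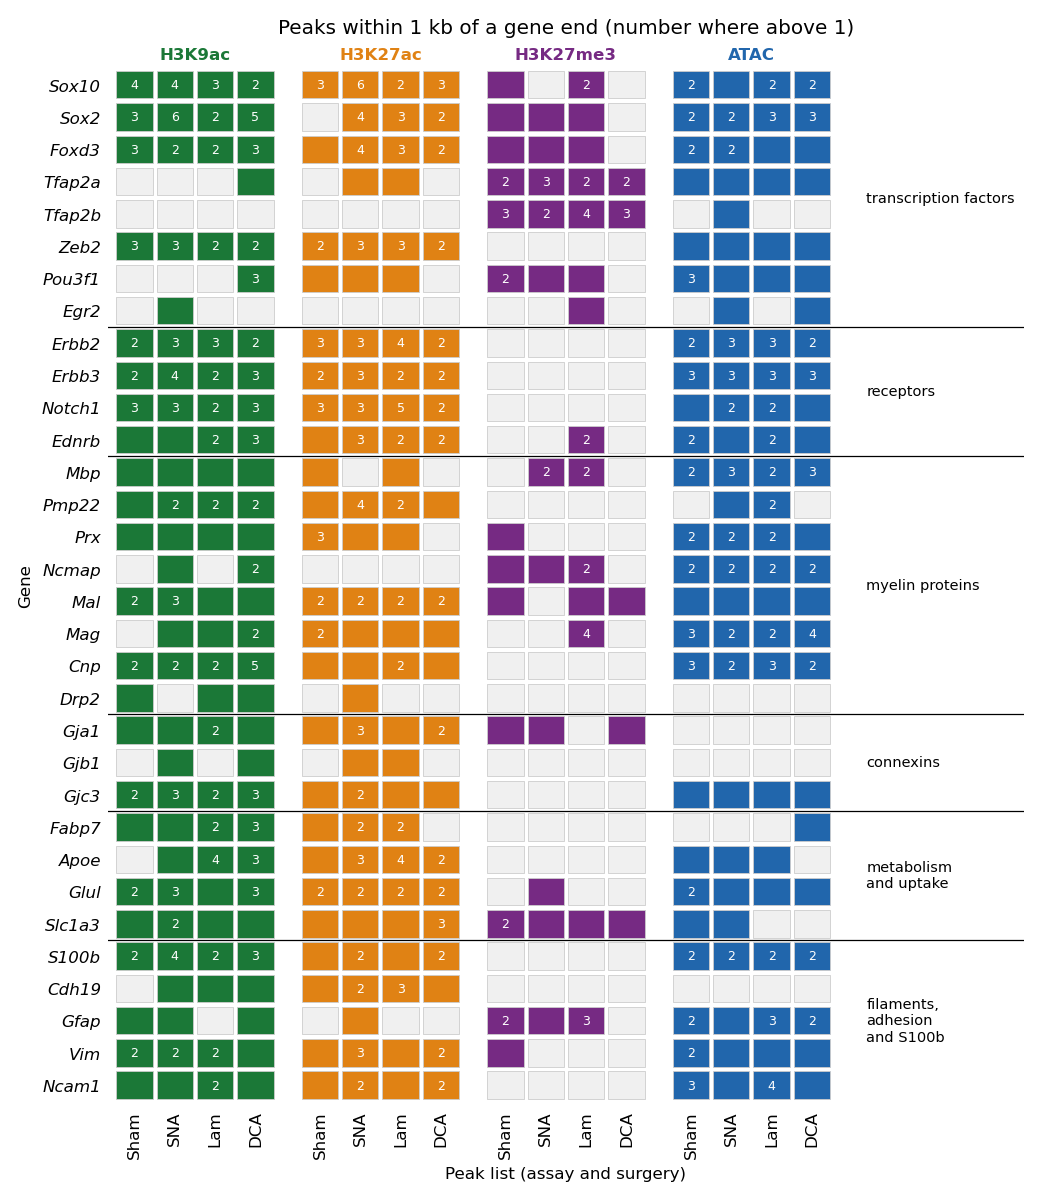
Peaks within 1 kb of a gene end for the 32 genes (rows, by role) in the 16 peak lists (columns). A coloured cell has at least 1 peak, a number gives how many where above 1, and a pale cell has none. The 4 receptors are filled in every H3K9ac, H3K27ac and ATAC column, while Tfap2b is filled in every H3K27me3 column and in no acetylation column.

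**Figure D2:**
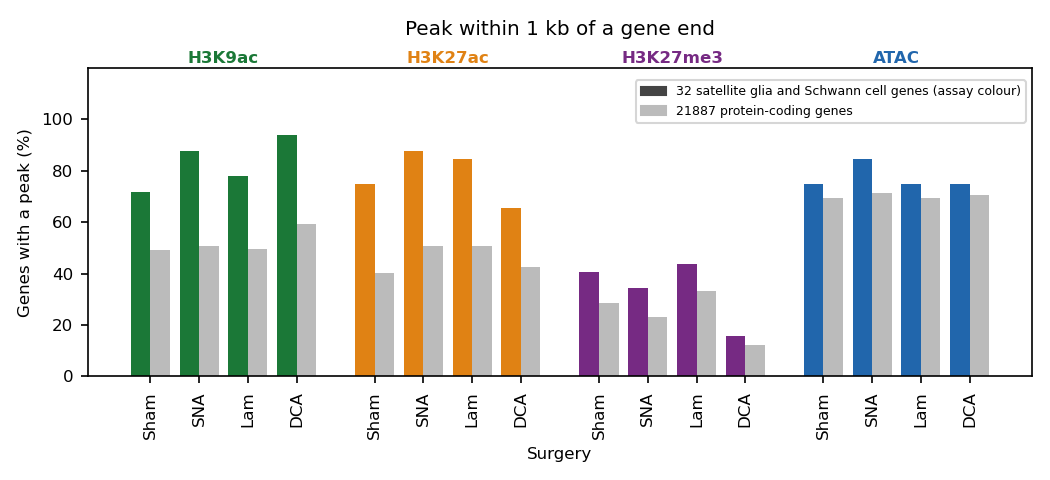
Share of genes with a peak within 1 kb of a gene end, in percent, for each list. Coloured bars are the 32 glial genes and grey bars all 21887 protein-coding genes. The coloured H3K9ac and H3K27ac bars stand above the grey in all 8 lists, while the ATAC bars stand closer to it.

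The outermost annotated end is not always the start that RefSeq's promoter table uses. Of the 25 genes with a listed start, 4 had it more than 1 kb inside the gene, by 3318 bases in Tfap2a, 3146 in Tfap2b, 2122 in Apoe and 1030 in Egr2. Within 1 kb of a listed start, 19 of the 25 had an H3K9ac peak in all 4 lists, beside 43.8% of the 17492 protein-coding genes with a listed start, and 19 an H3K27ac peak, beside 33.2%. An ATAC peak was there in all 4 lists for 18 (61.9%) and an H3K27me3 peak for 1, Tfap2b (2.68%). Egr2 and Apoe then had H3K9ac, H3K27ac and ATAC in every list, and so had Pmp22 and Mag. The ends of 5 genes lie within 2 kb of another gene's end, those of Erbb2 (Mien1), Erbb3 (Pa2g4), Apoe (Tomm40), S100b (Dip2a) and Gfap (Fam187a), and peaks there cannot be assigned to either gene.

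Peaks were also denser over the whole genes. In the gene body and 10 kb on either side, here called the window, the median glial gene had H3K9ac peaks per 10 kb of 1.42 in Sham and 1.78 in SNA, with 1.15 in Lam and 2.19 in DCA. Over all genes these medians were 0.254 in Sham and 0.338 in SNA, with 0.274 in Lam and 0.428 in DCA. Medians of H3K27ac stood at 1.29 in Sham and 2.41 in SNA, with 2.202 in Lam and 1.495 in DCA, and those over all genes between 0.2105 and 0.325. For ATAC they ran from 1.39 to 1.66, beside 0.917 to 1.09. The gap to all genes was thus wide for acetylation and narrow for open chromatin. For H3K27me3 the medians were 0.412 in Sham and 0.433 in SNA, with 0.692 in Lam and 0 in DCA, and over all genes 0.364 in Sham and 0.308 in SNA, with 0.476 in Lam and 0 in DCA.

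Among the transcription factors, Sox10 had the most acetylated window of the 32 genes in 7 of the 8 acetylation lists. The share of its 29.6 kb window (chr15:79154913-79164490 and 10 kb on either side, which also holds Polr2f) under H3K9ac peaks was 36.6% in Sham and 57.7% in SNA, with 14.8% in Lam and 55.7% in DCA. The Lam value is the exception, and there Pmp22 led with 21.1%. Under H3K27ac peaks it was 32.4% in Sham and 59.4% in SNA, with 56.3% in Lam and 32.2% in DCA. Of all genes, 0.297% or fewer had 50% or more of the window under H3K9ac or H3K27ac peaks in any list. Foxd3, a factor of the early neural crest, had peaks of all 3 active assays at its ends in every list.

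Zeb2, a zinc finger repressor that Schwann cells need to myelinate, did so too, and it had the most acetylation peaks of the 32 genes in all lists but 1. Its H3K9ac peaks over the 154 kb window numbered 30 in Sham and 61 in SNA, with 43 in Lam and 65 in DCA. In the Sham list Notch1 (39) and Mbp (31) had more. Its H3K27ac peaks numbered 28 in Sham and 73 in SNA, with 50 in Lam and 35 in DCA. The H3K9ac number was higher in each injury list than in its control list, while the H3K27ac number was higher in SNA than in Sham and lower in DCA than in Lam, as were the lengths of the lists.

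Tfap2a, Tfap2b, Sox2, Foxd3 and Pou3f1 had windows largely under H3K27me3 in at least 1 list. Tfap2b, which encodes AP-2 beta of the neural crest, had the most uniform cover (chr1:19208908-19238845 and 10 kb on either side), at 61.3% in Sham and 86.8% in SNA, with 71.7% in Lam and 71.1% in DCA. Neither acetylation had a peak in its window in any list, and its only ATAC peak at a gene end was in SNA. Tfap2a, its paralog, had 82.6% in Sham and 35.04% in SNA, with 71.7% in Lam and 27.7% in DCA of its window under H3K27me3. It carried active marks as well, with an H3K27ac peak at an end in SNA and Lam, an H3K9ac peak in DCA, and H3K27ac within 1 kb of a listed start in all 4 lists. Cover of the Pou3f1 window was 80.3% in Sham and 19.6% in SNA, with 41.1% in Lam and 9.77% in DCA. For Sox2, a factor of immature glia, it was 70.2% in Sham and 21.6% in SNA, with 44.3% in Lam and 14.8% in DCA. For Foxd3 the cover was 65.1% in Sham and 16.98% in SNA, with 63.3% in Lam and 12.9% in DCA. The 4 factors other than Tfap2b were covered more in each control than in either injury list. They reached 50% in control lists only and were named for that cover, so this order follows in part from the choice. The median window was covered by 5.32% in Sham and 2.32% in SNA, with 6.62% in Lam and 0% in DCA, and that of all genes by 3.08% in Sham and 2.001% in SNA, with 3.79% in Lam and 0% in DCA. The median width of an H3K27me3 peak differed between the lists as well, being greatest in Sham, with 972 bases, and least in DCA. Cover of 50% or more was reached by 5 of the 32 in Sham, 3 in Lam and 1, Tfap2b, in each injury list, beside 2.40%, 3.03%, 1.64% (SNA) and 0.507% (DCA) of all genes.

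The peaks behind these values were weak. The strongest H3K27me3 peak at an end of Tfap2b had a strength, meaning the −log10 p that the authors' list gives the peak, of 0.822 in Sham and 0.705 in SNA, with 0.754 in Lam and 0.832 in DCA. No H3K27me3 peak at an end of any of the 32 genes reached a q-value of 0.05. In the windows 1 did, a peak in the Sham list beside S100b (chr10:76243514-76244253, fold 2.24, −log10 q 1.92). A strength ranks a peak within its own list, so strengths of different lists are set side by side here and not compared.

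Egr2, the master factor of myelination, differed between its ends and its inner starts. At the ends it had an H3K9ac peak in SNA alone (strength 3.07), no H3K27ac peak in any list, and an ATAC peak in SNA (3.19) and DCA (5.01) but in neither control. That ATAC region, chr10:67535045-67535713, lies over the first listed start. In DCA an H3K9ac peak (6.06) began 6 bases after this start, just outside the 1 kb limit of the gene end. Egr2 was alone among the 32 genes in having an ATAC peak at an end in both injury lists and neither control, beside 1.06% of all genes, and the 2 peaks were weak. Within 1 kb of a listed start Egr2 had an ATAC peak in every list, and Gjc3 had one in both injury lists alone. Of its other 4 listed starts, the 3 from 67537566 to 67537870 lay under an ATAC peak in all 4 lists, and that at 67537930 in SNA alone. An H3K27ac region within the gene, chr10:67537423-67537787, was in SNA (8.72) and DCA (9.48) and in neither control.

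The 4 receptors were uniformly acetylated and open. Erbb3 and Erbb2 form the neuregulin receptor, Notch1 holds glia in an immature state, and Ednrb binds endothelin. Each had H3K9ac, H3K27ac and ATAC peaks at an end in all 4 lists, and H3K27me3 was found at an end once, at Ednrb in Lam. The ATAC peak next to Erbb3 (chr10:128567523-128589635) was among the strongest of its lists, with a strength of 64.5 in Sham and 64.9 in SNA, with 60.96 in Lam and 55.5 in DCA. It ranked in the top 1.23% or higher of every list. In Sham it spanned chr10:128565169-128566811, outside Erbb3 at the end that faces Pa2g4, so its owner cannot be told. Notch1 had the most H3K9ac peaks of the 32 genes in Sham, and the numbers in its 65.9 kb window were 39 in Sham and 32 in SNA, with 19 in Lam and 27 in DCA. The number was thus lower in SNA than in Sham and higher in DCA than in Lam.

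Myelin protein genes were more varied. Cnp, a phosphodiesterase of the myelin cytoplasm, and Mal, a raft protein of compact myelin, had peaks of all 3 active assays at their ends in every list. The Cnp window was covered by H3K9ac peaks over 23.02% in Sham and 32.5% in SNA, with 17.96% in Lam and 37.6% in DCA. Pmp22, the compact-myelin protein whose dosage causes Charcot-Marie-Tooth disease, had H3K9ac and H3K27ac at its ends in all lists. An ATAC peak lay there in SNA (3.77) and Lam (4.21) only, while within 1 kb of a listed start one lay in every list. H3K9ac peaks covered 27.4% in Sham and 38.6% in SNA, with 21.1% in Lam and 40.5% in DCA of its window. Mag, the adhesion protein of the inner myelin membrane, had H3K27ac and ATAC at an end in all lists, and H3K9ac in all but Sham. Prx (periaxin) had an H3K27ac peak at an end in all lists except DCA.

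The remaining myelin genes had few peaks at their ends or differed between lists. Ncmap, a Schwann cell myelin protein, had ATAC peaks at an end in all 4 lists and no H3K27ac peak in any. Its H3K9ac peaks there were in SNA (3.99) and DCA (5.96) alone, and an H3K9ac peak within 1 kb of its inner listed start was in Sham as well. Across its 48.7 kb window the H3K9ac peaks numbered 4 in Sham and 6 in SNA, with 1 in Lam and 14 in DCA. Mbp, the major cytoplasmic protein of compact myelin, had an H3K27ac peak at an end in Sham (3.91) and Lam (9.07) and in neither injury list. It was alone among the 32 in this, beside 0.749% of all genes, although its H3K27ac peaks over the window numbered 24 in Sham and 28 in SNA, with 29 in Lam and 22 in DCA. The end region, chr18:82475217-82476352, lies at the outermost end of the gene. Mbp has no listed start, so whether its myelin transcripts begin there could not be told. Drp2, of the periaxin complex, had no ATAC peak at an end in any list and 0 or 1 in its window.

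**Figure D3:**
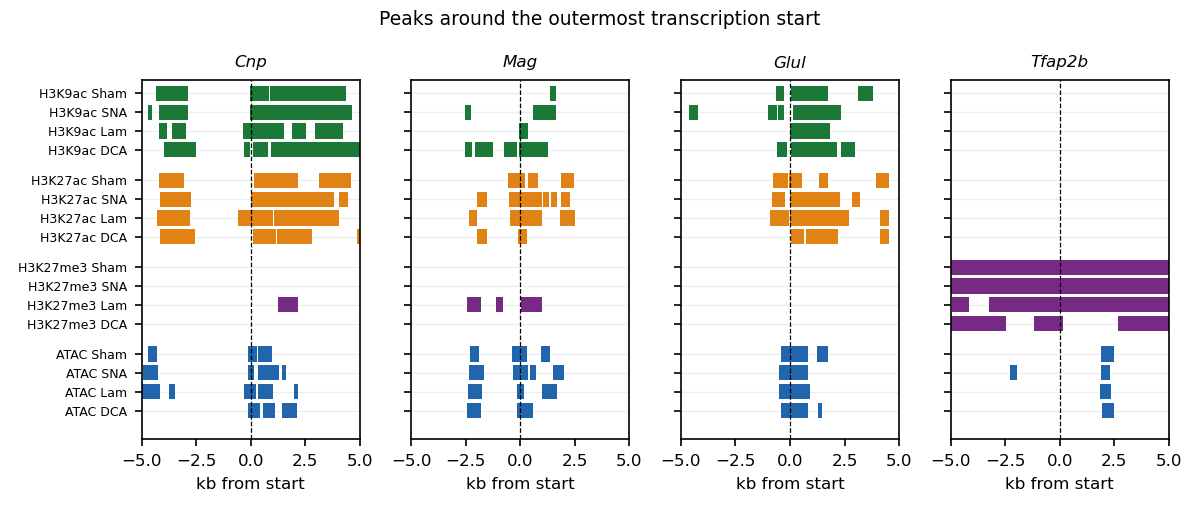
Peaks of each of the 16 lists (rows) by distance in kb from the outermost listed transcription start (dashed line, positive values inside the gene) of Cnp, Mag, Glul and Tfap2b. Bars are peaks, drawn to 5 kb on either side. Cnp and Glul have acetylation and ATAC bars at the start in nearly every row, Mag fewer of H3K9ac, and Tfap2b has H3K27me3 bars over most of the interval.

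The 3 connexins differed from each other. Gjc3, the connexin 29 gene of Schwann cells, had peaks of all 3 active assays at its ends in every list. Within 1 kb of its listed start, however, an ATAC peak lay in SNA (5.68) and DCA (2.35) only. Gja1, connexin 43 of satellite glia, had both acetylations in every list and no ATAC peak within 1 kb of an end in any. Just past that limit, an ATAC peak began 1092 to 1313 bases inside the gene in every list. The strengths of these ATAC peaks were 11.4 in Sham and 11.9 in SNA, with 6.10 in Lam and 4.72 in DCA. The H3K9ac peaks at an end of Gja1 had strengths of 3.45 in Sham and 12.9 in SNA, with 5.45 in Lam and 17.5 in DCA. Gjb1, connexin 32 of the Schwann cell and the gene of X-linked Charcot-Marie-Tooth disease, had no ATAC peak anywhere in its 29.3 kb window in any list. It had an H3K9ac peak at an end in SNA (2.86) and DCA (5.34) and in neither control. Ncmap and Gjb1 were the 2 of 32 genes with such an H3K9ac peak in both injuries alone, beside 1.67% of all genes, and none of the 4 peaks had a strength above 5.96.

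Glul, glutamine synthetase, had strong peaks among the genes of metabolism and uptake. The ATAC peak at its end had a strength of 42.2 in Sham and 67.6 in SNA, with 25.00 in Lam and 32.9 in DCA, within the top 3.24% of every list. Its H3K9ac peak at an end reached 10.8 in Sham and 20.2 in SNA, with 7.39 in Lam and 30.6 in DCA, within the top 1.66% of the Sham, SNA and DCA lists but only the top 20.7% of the Lam list. Fabp7, the lipid-binding protein that marks satellite glia, had H3K9ac at an end in all lists, H3K27ac in all but DCA, and an ATAC peak there in DCA only (10.4). Apoe, the lipid carrier, had H3K27ac at an end in all lists and H3K9ac in all but Sham. Slc1a3 had both acetylations and H3K27me3 at an end in all 4 lists, and ATAC in Sham (3.47) and SNA (5.31) only.

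S100b, a calcium-binding marker of Schwann cells, and Vim (vimentin, the filament protein of immature and non-neuronal cells) had peaks of all 3 active assays at their ends in every list. The Vim ATAC peak had a strength of 32.2 in Sham and 24.5 in SNA, with 24.04 in Lam and 23.6 in DCA. Cdh19, a cadherin of Schwann cell precursors, had H3K27ac at an end in all lists and H3K9ac in all but Sham. It had no ATAC peak at an end in any list, and those in its 110 kb window numbered 1 in Sham and 0 in SNA, with 0 in Lam and 1 in DCA. Gfap, a filament protein that satellite glia are known to raise after nerve injury, had H3K27ac at an end in SNA alone (5.31). Its H3K9ac peak there was in Sham (3.45), SNA (5.697) and DCA (7.08), and its ATAC peak in all lists. Ncam1, an adhesion molecule of non-myelinating Schwann cells that neurons share, had the most ATAC peaks of the 32 genes in 3 of the 4 lists. In its 317 kb window they numbered 27 in Sham and 46 in SNA, with 35 in Lam and 34 in DCA, and Mbp led in Sham with 29.

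Between surgeries, the peak numbers of the glial genes moved as the lists did. The 32 windows held H3K9ac peaks numbering 335 in SNA and 251 in Sham, a log2 ratio of 0.42 (95% binomial interval 0.18 to 0.66), beside 0.50 over all genes and 0.57 for the whole lists. For the spinal injury the numbers were 361 in DCA and 213 in Lam, a log2 ratio of 0.76 (0.51 to 1.01), beside 0.75 over all genes. H3K27ac peaks came to 376 in SNA and 198 in Sham, a log2 ratio of 0.93 (0.67 to 1.18), beside 0.78 over all genes. After the spinal injury they came to 223 in DCA and 327 in Lam, a log2 ratio of -0.55 (-0.80 to -0.30), beside -0.48 over all genes. ATAC peaks came to 253 in SNA and 210 in Sham, a log2 ratio of 0.27 (-0.00095 to 0.54), beside 0.22 over all genes, and to 223 in DCA and 229 in Lam, a log2 ratio of -0.04 (-0.31 to 0.23), beside -0.0035 over all genes. H3K27me3 peaks came to 92 in SNA and 89 in Sham, a log2 ratio of 0.05 (-0.39 to 0.48), beside 0.07 over all genes, and to 61 in DCA and 136 in Lam, a log2 ratio of -1.16 (-1.62 to -0.71), beside -1.11 over all genes. In all 8 of these the value over all genes lay within the interval of the glial genes.

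The 4 acetylation ratios of injury over control were nearer to 0 when each assay's lists were trimmed to the strongest peaks at equal length. The H3K9ac ratios were then -0.10 for SNA and 0.07 for DCA, and that of H3K27ac was 0.02 for DCA. The H3K27ac ratio of SNA was then 0.35 (0.08 to 0.63), beside 0.07 over all genes. Without Zeb2 this value was 0.30 (-0.0010 to 0.60), and at full list length it was 0.83. The 2 controls also differed, with H3K27ac peaks numbering 327 in Lam and 198 in Sham, a log2 ratio of 0.72 (0.46 to 0.99), beside 0.62 over all genes. That ratio is larger in size than that of DCA over Lam and smaller than that of SNA over Sham, with which it shares the Sham list, and at equal list length it was 0.11. H3K9ac peaks of the controls numbered 213 in Lam and 251 in Sham, a log2 ratio of -0.24 (-0.51 to 0.03), beside -0.02 over all genes, and the ratio was also -0.24 at equal list length.

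**Figure D4:**
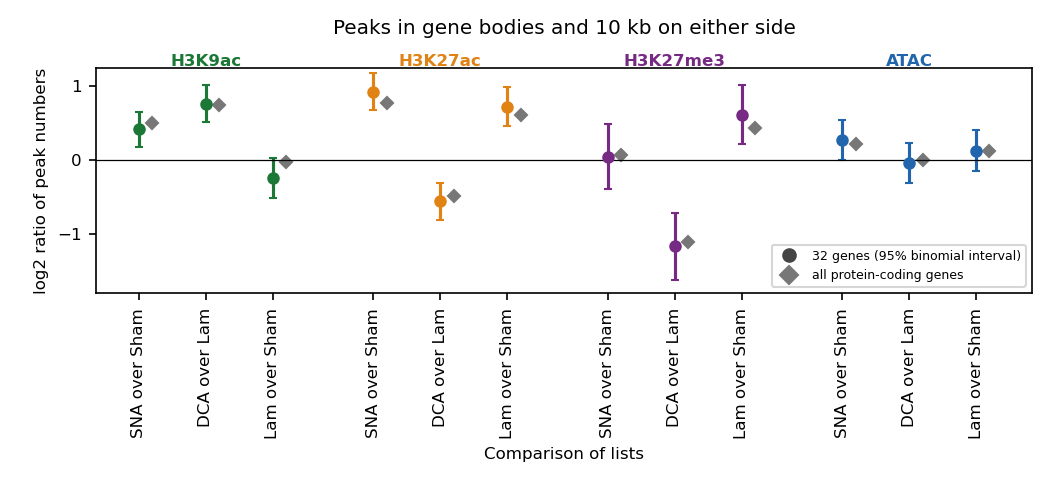
Log2 ratio of the number of peaks in the gene bodies and 10 kb on either side between 2 lists, for each assay and comparison. Circles with bars are the 32 glial genes with their 95% binomial interval, and diamonds are all protein-coding genes. In the 8 injury comparisons every diamond lies within the bar beside it, from 0.93 against 0.78 for H3K27ac in SNA to -1.16 against -1.11 for H3K27me3 in DCA.

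Gene by gene, more H3K9ac peaks were found in SNA than in Sham for 21 of the 32 genes (38.9% of all genes) and fewer for 5 (11.4%). In DCA 25 had more than in Lam (47.6%) and 3 fewer (8.63%). For H3K27ac 28 had more in SNA than in Sham (43.9%) and 1, Glul, fewer (12.8%), while in DCA 3 had more (12.1%) and 21 fewer (38.9%) than in Lam. These shares of all genes include the many genes with no peak in either list. After the 45 of Zeb2, the largest gains of H3K27ac in SNA were 11 peaks each at Sox2 (4 to 15) and Pmp22 (11 to 22). The largest losses in DCA were 15 at Zeb2, 13 at Pmp22 (23 to 10) and 8 at Tfap2a (15 to 7). For H3K9ac in DCA, Mbp had 30 peaks beside 14 in Lam and Ncmap 14 beside 1. For H3K9ac in SNA, Prx had 15 beside 8 in Sham, and the largest fall in number was 7 at Notch1. For H3K27me3, Mbp had 18 peaks in Lam and 0 in DCA, and Tfap2a 3 in Sham and 10 in SNA. The 3 Sham peaks of Tfap2a covered 82.6% of its window and the 10 of SNA 35.04%. Its number of peaks and its cover thus moved in opposite directions. The same held for H3K9ac at Notch1, with cover of 35.6% in Sham and 48.0% in SNA. It held for H3K27ac at Glul as well, with 7.54% in Sham and 10.8% in SNA. For ATAC, Ncam1 had 19 more in SNA than in Sham, Slc1a3 13 in DCA beside 7 in Lam, and Cnp 6 in DCA beside 12 in Lam.

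At the gene ends, SNA had an H3K9ac peak that Sham lacked at 6 genes (Egr2, Ncmap, Mag, Gjb1, Apoe and Cdh19), beside 5.44% of all genes. It lacked one at Drp2 (3.86%). Within 1 kb of a listed start, though, Sham had H3K9ac at Egr2, Ncmap, Mag and Apoe too. Of the other 2, Gjb1 still lacked it in Sham, and Cdh19 has no listed start. DCA had an H3K9ac peak at an end without Lam at 5 (Tfap2a, Pou3f1, Ncmap, Gjb1 and Gfap), beside 10.2%, and lacked none (0.594%). H3K27ac was at an end in SNA and not in Sham at 5 (Sox2, Tfap2a, Drp2, Gjb1 and Gfap), beside 13.5%, and the reverse held at Mbp (2.83%). In DCA no gene gained H3K27ac against Lam (2.40% of all genes), and 6 lost it (Tfap2a, Pou3f1, Mbp, Prx, Gjb1 and Fabp7), beside 10.6%. ATAC peaks at an end were in SNA and not in Sham at 3 genes (Tfap2b, Egr2 and Pmp22, beside 5.51%), and in Sham and not in SNA at 0 (3.75%). In DCA and not in Lam they were at Egr2 and Fabp7 (4.96%), while Pmp22 and Apoe had one in Lam and not in DCA (3.82%). Within 1 kb of a listed start, Tfap2a and Gjb1 had H3K27ac, and Egr2, Pmp22 and Apoe had ATAC, in all 4 lists. H3K27me3 was gained in SNA at Mbp and Glul (9.0%, 1970 of all genes) and lost at Sox10, Prx, Mal and Vim (14.6%). In DCA it was gained at Gja1 (3.48%) and lost at 10 genes (24.6%), Sox10 among them, the only one of the 32 to lose it in both injuries (6.11% of all genes). Most of these shares are close to those of all genes, 1 gene of the 32 being 3.125%.

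Peaks of an injury list with no overlapping peak in its control did not exceed, beyond counting error, their share over all windows in any assay. For H3K9ac they made up 45.4% (39.95 to 50.9%) beside 48.1% of all window peaks in SNA, and 61.2% (55.98 to 66.3%) beside 60.7% in DCA. For H3K27ac the shares were 56.4% (51.2 to 61.5%) beside 63.9% in SNA and 17.5% (12.7 to 23.1%) beside 26.7% in DCA, both below the share over all windows. ATAC gave 52.96% (46.6 to 59.2%) beside 56.9% in SNA and 45.7% (39.1 to 52.5%) beside 53.7% in DCA, the latter below the share over all windows. H3K27me3 gave 63.04% (52.3 to 72.9%) beside 69.1% in SNA and 55.7% (42.4 to 68.5%) beside 59.3% in DCA. Between the controls, Lam peaks with no Sham peak were 32.9% (26.6 to 39.6%) beside 39.4% for H3K9ac and 52.3% (46.7 to 57.8%) beside 53.8% for H3K27ac.

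Overlapping peaks of the 4 lists were next merged into regions, 393 of H3K9ac in the 32 windows. Of these, 85 were in all 4 lists (21.6%, beside 19.9% over all gene windows) and 47 were in SNA and DCA only (11.96%, beside 8.50%). A single region, 995 bases from Apoe, was in both controls only (0.254%, beside 0.339%). Both injury lists of H3K9ac were longer than both control lists, and the difference between these 2 patterns is present over all windows too. Of the 47, 10 lay in the window of Zeb2, 6 in that of Mbp and 4 in that of Pmp22. The strongest in both lists were a pair beside Sox10, chr15:79151820-79152757 (9.08 in SNA, 12.7 in DCA) and chr15:79172553-79173216 (9.08 and 9.79), and one within Mbp (8.16 and 9.70). For H3K27ac, 5 of 372 regions were in both injuries only and 5 in both controls only (1.34% each, beside 2.36% and 2.41%). For ATAC, 26 of 446 were in both injuries only (5.83%, beside 4.35%), 7 of them in the window of Ncam1, and 10 in both controls only (2.24%, beside 2.64%).

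Open chromatin of the glial genes was acetylated more often than that of genes at large. In Sham, 94 of the 210 ATAC peaks of the 32 windows overlapped an H3K9ac or H3K27ac peak, 44.8% (95% exact binomial interval 37.9 to 51.8%), beside 21.7% over all gene windows. In SNA it was 51.8% (45.4 to 58.1%) beside 24.4%, in Lam 44.98% (38.4 to 51.7%) beside 22.6%, and in DCA 49.3% (42.6 to 56.1%) beside 27.3%. All 4 intervals lie above the value over all windows, although peaks of 1 gene are not independent of each other. Peaks with both acetylations made up 25.7% in Sham and 36.4% in SNA, with 23.1% in Lam and 26.9% in DCA, beside 10.4% in Sham and 15.3% in SNA, with 13.1% in Lam and 12.4% in DCA over all windows. The genes differed widely in this. Summed over the 4 lists, 18 of the 22 ATAC peaks of Zeb2 and 27 of the 38 of Notch1 overlapped H3K9ac, but 11 of the 142 of Ncam1, 2 of the 14 of Pou3f1 and 0 of the 11 of Tfap2b. H3K27me3 overlapped 19.05% in Sham and 8.300% in SNA, with 24.02% in Lam and 4.48% in DCA of the ATAC peaks, beside 14.2% in Sham and 10.2% in SNA, with 20.3% in Lam and 3.89% in DCA over all windows.

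In the windows, 12 H3K27ac regions had a strength of 30 or more in at least 1 list, and they fell into 2 kinds. The first 6 lay under ATAC and H3K9ac peaks after every surgery, and were 1 each in Mbp, Ncam1, Pmp22 and Tfap2a and 2 in Zeb2. The region of Ncam1, chr9:49796919-49798657, had a strength of 116 in Sham and 13.8 in SNA, with 97.02 in Lam and 66.2 in DCA. That of Tfap2a, chr13:40729318-40731878, had 50.2 in Sham and 10.7 in SNA, with 55.2 in Lam and 40.7 in DCA. That of Zeb2 nearest the gene end, chr2:45115559-45117111, had 11.3 in Sham and 32.2 in SNA, with 29.4 in Lam and 13.9 in DCA, and that of Pmp22, chr11:63130777-63132996, had 9.77 in Sham and 20.6 in SNA, with 38.05 in Lam and 11.5 in DCA. All 6 had a peak in every H3K27ac list.

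The other 6 had an ATAC peak in 1 list at most. They were 2 regions within Zeb2, 1 each within Glul and Ncmap, and 1 each beside Prx and Apoe. The region within Zeb2 at chr2:45021057-45022066 had the highest strengths of the 12 in Sham and DCA, with 150 in Sham, 93.7 in DCA and 71.6 in Lam, and had no peak in SNA and no ATAC or H3K9ac peak in any list. In Glul (chr1:153903875-153904475) the values were 43.5 in Sham, 34.4 in DCA and 42.2 in Lam, with no peak in SNA. Beside Prx (chr7:27495250-27495838) they were 32.2 in Sham and 25.4 in Lam, with a peak in DCA too and again none in SNA. Within Ncmap (chr4:135374344-135374716) they were 31.1 in Sham, 20.7 in DCA and 25.3 in Lam, and SNA had none. The second region of Zeb2 (chr2:45045188-45046104) and that beside Apoe (chr7:19691327-19692579) had SNA peaks with strengths of 9.37 and 5.27. The H3K27ac list of SNA thus lacked 4 strong regions of these genes that the other 3 lists shared, as it lacked strong peaks of theirs over the genome. What sets them apart was not tested. With the SNA list left out, 20 of the 32 genes had an H3K27ac peak at an end in every list, the same number as with it.

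**Figure D5:**
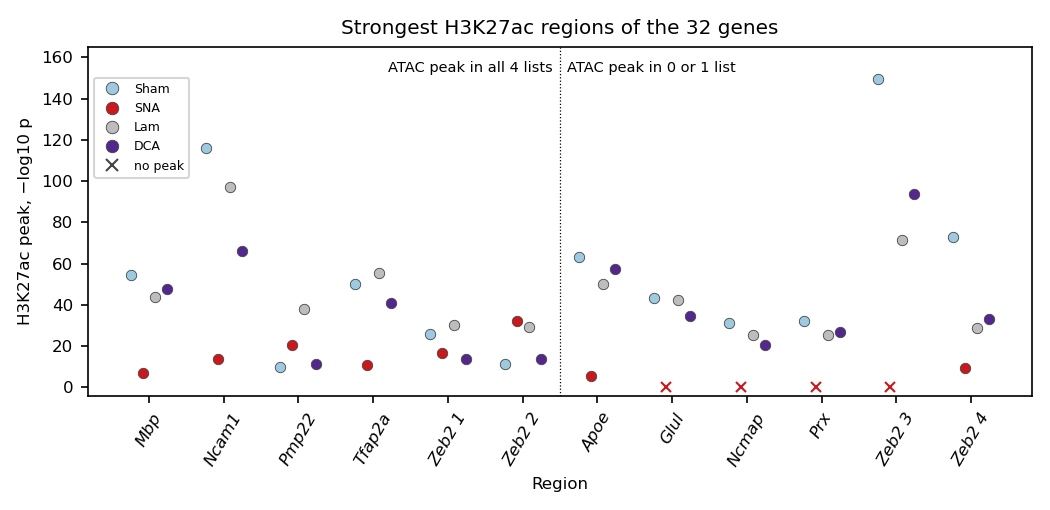
Strength (−log10 p of the peak within its own list) of the 12 strongest H3K27ac regions of the 32 genes in each surgery, each region named by its gene and numbered along the chromosome for Zeb2 within each side of the plot. Regions left of the dotted line lie under an ATAC peak in all 4 lists, those right of it in 0 or 1, and a cross at 0 means no peak. On the right, 4 of the 6 regions have no peak in SNA. The same strength cutoff chose regions in all lists, so these crosses follow in part from the choice.

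Other genes of the same pathways, listed for their function, were acetylated at their ends to varying degrees. Of 10 regulators of myelination (among them Yy1, Tead1, Yap1 and Nab2), 7 had an H3K9ac peak and 7 an H3K27ac peak at an end in all 4 lists, and all 10 an ATAC peak, beside 41.9%, 32.1% and 61.9% of all genes. Of 8 further myelin and node genes the numbers were 4, 4 and 6. Of 7 further satellite glia genes such as Kcnj10 they were 3, 4 and 7, and of 8 genes of neuregulin and ERBB signalling 5, 5 and 7. Of 10 Notch pathway genes they were 6, 5 and 8. In 10 genes of the repair Schwann cell, the state that Schwann cells take on in a cut nerve (Jun, Ngfr, Shh and others), the acetylation counts were 1 and 2, with 8 for ATAC, and 3 had an H3K27me3 peak in all 4 lists (5.30% of all genes). Several of these counts are near the shares of all genes. In SNA against Sham more H3K27ac peaks were found for 9 of the 10 regulators and fewer for 0, and for 4 and 2 of the 10 repair genes, beside 43.9% and 12.8% of all genes. In DCA against Lam 2 regulators had more and 8 fewer, and 2 repair genes more and 4 fewer, beside 12.1% and 38.9%. The counts of the repair genes are close to these shares.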

How the data were processed

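Peak lists were used as the authors deposited them, 1 for each assay and surgery, with replicates pooled per the series' design text, on build mm10 per the submitters' processing notes. The aligner, the peak caller and its settings are not given in the sources used here. Each deposited list gives every peak a score, a fold enrichment, a −log10 p and a −log10 q, which the authors' caller computed. ATAC intervals listed with several summits were kept once, with the highest −log10 p. Genes were the 21887 protein-coding genes of RefSeq GRCm38.p6, and promoter sequences are of the same table. The 32 genes, the other lists and the tests were chosen with earlier results of these data known. Peaks were counted when they overlapped by 1 base the gene body with 10 kb on either side, or the 1 kb on either side of a gene end. Ratios and shares carry exact binomial 95% intervals (scipy 1.17.1), and the counting code was checked on simulated intervals. All 32 genes are accounted for, and some genes of the other lists are not reported here. Those described with values were those with a gene-end peak in all 4 lists or in none, gained or lost in both injuries, with the 3 largest net changes, or with the 3 strongest peaks. The 12 strong H3K27ac regions and the coverage of windows were added after the values were seen.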

Additional observations from a re-analysis of the deposited data

How the results depend on the processing

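Of 179 values under other settings, 114 stayed within the interval of the reported value or within 1.5 times the reported count, 58 moved further and 7 reversed in sign; the cause was not tested beyond what each setting removes. No paired analysis was possible because every list pools its replicates. In the values below, SNA to Sham means SNA against Sham, and likewise for the other pairs.

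With lists of equal length the log2 ratios of window peaks were H3K9ac -0.10 (SNA to Sham, reversed) and 0.073 (DCA to Lam), H3K27ac 0.35 (SNA to Sham), 0.020 (DCA to Lam, reversed) and 0.11 (Lam to Sham) and H3K27me3 -0.024 (SNA to Sham, reversed) and -0.20 (DCA to Lam), and with Zeb2 also left out H3K9ac -0.23 (SNA to Sham, reversed) and 0.14 (DCA to Lam) and H3K27ac 0.30 (SNA to Sham), -0.024 (DCA to Lam) and 0.11 (Lam to Sham). Shares of peaks with no partner in the control list were then H3K9ac 32.5% (SNA to Sham) and 49.6% (DCA to Lam), H3K27ac 47.4% (SNA to Sham), 30.1% (DCA to Lam) and 38.5% (Lam to Sham) and H3K27me3 72.9% (SNA to Sham), 91.8% (DCA to Lam) and 78.6% (Lam to Sham). The counts of genes whose end peak differed were H3K9ac 4 (SNA to Sham) and H3K27ac 3 (SNA to Sham), and H3K27me3 lay at an end in every list for 1 gene.

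Among peaks whose −log10 q was 2 or higher, the ratios were H3K9ac 1.19 (SNA to Sham), 1.43 (DCA to Lam) and 0.60 (Lam to Sham, reversed) and ATAC 0.55 (SNA to Sham) and 0.28 (DCA to Lam, reversed), and the shares H3K9ac 63.9% (SNA to Sham), 71.1% (DCA to Lam) and 51.97% (Lam to Sham). The counts of genes differing at an end were H3K9ac 11 (DCA to Lam) and H3K27me3 0 (SNA to Sham), 0 (DCA to Lam) and 0 (Lam to Sham), and 0 had H3K27me3 there in every list. No H3K27me3 ratio or share could be given there, since the windows had no such peaks left.

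With 5 kb at the ends these counts were H3K9ac 4 (SNA to Sham) and 2 (Lam to Sham), H3K27ac 3 (DCA to Lam) and 0 (Lam to Sham) and ATAC 0 (SNA to Sham), 1 (DCA to Lam) and 1 (Lam to Sham), and H3K27me3 was in every list for 8. At listed starts, among 25 genes, they were H3K9ac 2 (SNA to Sham) and H3K27ac 3 (SNA to Sham), 2 (DCA to Lam) and 1 (Lam to Sham), and 1 had H3K27me3 in every list. Within gene bodies alone the ratio was H3K27me3 -1.74 (DCA to Lam) and the shares H3K27me3 74.5% (SNA to Sham) and 73.1% (DCA to Lam). Among peaks nearest to the gene the ratio was ATAC 0.029 (DCA to Lam, reversed). With 50% reciprocal overlap the shares rose to H3K9ac 71.6% (SNA to Sham), 84.8% (DCA to Lam) and 68.1% (Lam to Sham), H3K27ac 80.6% (SNA to Sham), 64.6% (DCA to Lam) and 76.1% (Lam to Sham), H3K27me3 92.4% (SNA to Sham), 93.4% (DCA to Lam) and 90.4% (Lam to Sham) and ATAC 66.4% (SNA to Sham), 58.3% (DCA to Lam) and 65.5% (Lam to Sham).

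The counts of genes with H3K9ac, H3K27ac or ATAC at an end in every list stayed within 1.5 times under each setting tried, the one without the H3K27ac list of SNA included. The H3K9ac count reached that limit, falling from 21 to 14 among peaks with −log10 q of 2 or higher, beside 27.8% of all genes. The H3K27ac SNA ratio stayed above 0 in each. The settings without that list and without Zeb2 were chosen after seeing the data. With 1 pooled list for each assay and surgery and no read totals, depth cannot be told apart from surgery, and a peak missing from a list is not evidence that the mark was absent.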
